A study of Glycyrrhiza uralensis with 24 samples.

Results

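Among the 34445 gene IDs measured in roots and aerial parts of licorice (Glycyrrhiza uralensis), 65 were both abundant and low in variation over all 24 RNA-seq libraries. They were selected on 2 limits: a mean of at least 50 TPM (the usual length-scaled measure of a transcript's share of a library) and a coefficient of variation (CV, the SD divided by the mean) of at most 0.20. The mean limit alone was met by 1743 IDs, and the 65 made up 3.73% of those. Both limits used the values of every library. The levels, ratios, spreads and calls of the 65 genes below are therefore descriptions of genes chosen by their steadiness, and none of them supports that steadiness.

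The study sampled seedlings of 60 days, and 3 libraries were made for each of 8 groups. The root groups were a control at 0 h and salt groups after 2, 6 and 12 h. The aerial groups, labelled stems and leaves, had the same times. Salt groups are labelled 150 mM NaCl, given in MS nutrient solution after hydroponic growth, and the control groups are labelled distilled water. The treatment protocol calls the same step a simulated drought. No genotype, cultivar or line is given, and the labels do not say whether the 3 libraries of a group came from separate plants, so the spread between them may be technical. There is no control at 2, 6 or 12 h, so time of day and time in salt cannot be told apart. The medium and the sample titles also differ between controls and salt groups. The medium, and any batch that the titles may follow, therefore cannot be told apart from salt.

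Genes expressed at a like level in many tissues and conditions are often called housekeeping or constitutive genes, since many serve processes that every cell runs, such as protein synthesis and turnover. In plants, genes of this kind are used as internal references in quantitative PCR, where the transcript of interest is measured against a gene taken to be steady. Salt and the difference between root and shoot are known to alter many transcripts, so a reference gene is usually checked across the organs and treatments of the study at hand.

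The files give IDs without gene names, and no annotation was used here. No name, protein, pathway or sequence is therefore given for any of the 65 genes, the common plant reference genes could not be looked up among them, and the organ labels could not be checked against marker genes. In RNA from whole organs, fewer cells of a type and less RNA per cell cannot be told apart.

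The 65 genes had means of 50.7 to 524 TPM, with a median of 76.9 TPM. Their CV ran from 0.111 to 0.199, with a median of 0.170, while the median CV of all 1743 abundant genes was 0.591. The highest of a gene's 24 libraries stood 1.48 to 2.36 times above its lowest, with a median of 1.92 among the 65 genes and 8.94 among all abundant genes. In 39 of the 65 genes all libraries lay within 2-fold of each other, as they did in 48 of the 1743 abundant genes. Most of the 65 genes were in the lower part of the abundant range. There were 32 of them among the 618 genes between 50 and 75 TPM, 13 among the 312 genes up to 100 TPM, 12 among the 326 genes up to 150 TPM and 6 among the 165 genes up to 200 TPM. Only 2 of the 322 genes at 200 TPM or more, or 0.62%, met the CV limit.

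**Figure D1:**
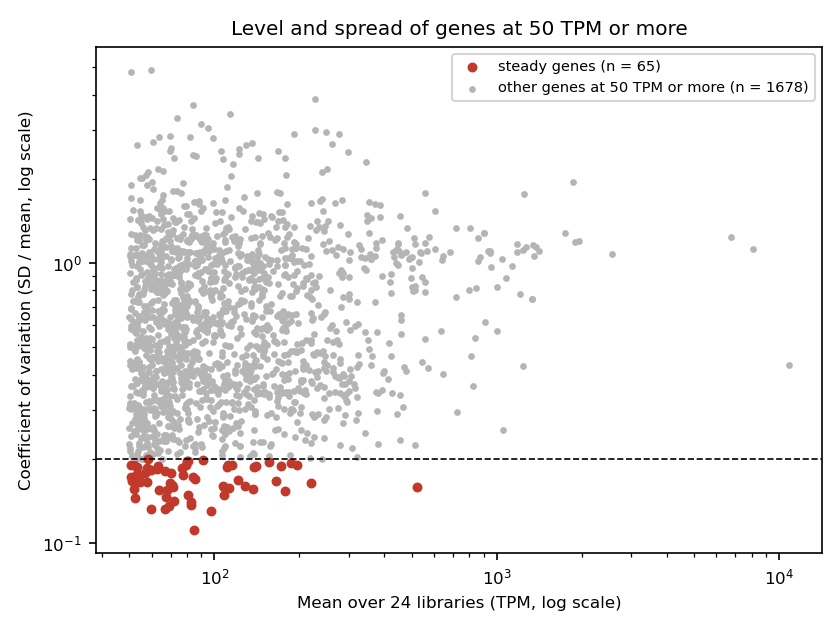
Mean over 24 libraries (horizontal, TPM, log scale) and CV (vertical, log scale) of the 65 chosen genes (red) and of the other 1678 genes at 50 TPM or more (grey); the dashed line is the CV limit of 0.20. The red points lie under the line by choice, and 1 of them, at 524 TPM, stands well to the right of the rest.

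The gene with the highest mean, Glyur000014s00002506, averaged 524 ± 83.4 TPM (SD, n = 24). In roots it stood at 619, 589 and 508 TPM in the controls, 644, 541 and 616 TPM at 2 h, 485, 490.4 and 474 TPM at 6 h, and 541, 711 and 602 TPM at 12 h. In aerial parts it stood at 569, 389 and 586 TPM in the controls, 443, 546 and 476 TPM at 2 h, 549.7, 395 and 475 TPM at 6 h, and 495, 439 and 398 TPM at 12 h. The highest library was therefore a root one and the lowest an aerial control, with the values of the organs overlapping widely. Its mean was 1.18-fold higher in roots than in aerial parts.

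Next by level came Glyur002136s00034526 with 220.2 ± 36.3 TPM and Glyur000060s00004697 with 196 ± 37.3 TPM. Glyur000063s00005826 averaged 187 ± 36.2 TPM, Glyur001117s00026956 178 ± 27.4 TPM and Glyur003098s00042656 172 ± 32.5 TPM (SD, n = 24 each). These 5 genes were not equally steady. Glyur000060s00004697 varied 2.35-fold between its highest library (285 TPM, a root control) and its lowest (121 TPM, an aerial library at 6 h). Glyur002136s00034526 varied 1.78-fold, from 173 to 308 TPM. The widest such ratio of all 65 genes, 2.36, was that of Glyur000259s00016732, which had a mean of 66.8 TPM and libraries from 39.6 TPM in a root at 6 h to 93.5 TPM in an aerial part at 12 h.

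The lowest CV as deposited, 0.111, belonged to Glyur000109s00010625, which averaged 85.0 ± 9.45 TPM (SD, n = 24). In roots its 9 salt libraries ran from 72.5 to 97.4 TPM with a median of 85.9 TPM, and its controls stood at 81.9, 88.9 and 79.97 TPM. In aerial parts its salt libraries ran from 68.6 to 101 TPM with a median of 88.9 TPM, and its controls stood at 83.8, 90.9 and 93.4 TPM. Salt and control libraries overlapped in both organs, and so did roots and aerial parts. In aerial parts its mean was 71.9 ± 5.34 TPM at 12 h, against 89.3 ± 4.97 TPM in the controls (SD, n = 3 each). As deposited the libraries at 12 h (69.0, 68.6 and 78.0 TPM) were below all 3 controls, but the groups overlapped under both other scalings used here, by the sum of a library's listed TPM (66.7 to 78.8 at 12 h, against 75.1 to 87.3 in controls) and by median of ratios (71.8 to 86.5, against 81.4 to 95.5). In median-of-ratios scaling each library is divided by the median ratio of its genes to their geometric means. Its rank also depended on the scaling, since its CV was 0.136 by listed sum, where Glyur002136s00034526 had the lowest of the 65 (0.122), and 0.183 by median of ratios, where Glyur000338s00015580 had the lowest (0.0901).

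The other genes of lowest CV as deposited were Glyur000244s00014823 (0.131), Glyur000247s00015495 (0.133), Glyur000542s00017543 (0.133) and Glyur000338s00015580 (0.136). Glyur000244s00014823 had 85.4 to 127 TPM in the 12 root libraries, with a median of 104 TPM, and 79.8 to 102 TPM in the 12 aerial libraries, with a median of 91.5 TPM. Its highest values were in roots, and the organs overlapped. Glyur000247s00015495 had 55.8 to 82.6 TPM in roots, with a median of 66.7 TPM, and 51.9 to 78.7 TPM in aerial parts, with a median of 66.6 TPM. Here the ranges of the organs were almost the same.

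At the mean limit, the genes just inside were Glyur000158s00011351 (50.7 TPM) and Glyur000880s00024787 (50.8 TPM), and those just outside were Glyur000215s00017010 (49.9 TPM, CV 0.158) and Glyur000024s00006639 (49.1 TPM, CV 0.176). At the CV limit, Glyur000324s00015442 (0.199) and Glyur000878s00027528 (0.198) were just inside. Just outside were Glyur000115s00008246, whose CV passes the limit only in later decimals, and Glyur000014s00002517, at 0.2001. The limits thus cut through a continuous range of values.

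The spread that remained lay partly between replicates. Within groups of 3 libraries, the CV of the 65 genes had a median of 0.129 and ran from 0.0622 (Glyur000037s00002667) to 0.205 (Glyur001991s00035737), with a median of 0.301 over all abundant genes. The median share of a gene's variance that lay between replicates of a group was 41.5% among the 65 genes and 21.1% among all abundant genes. The median share between roots and aerial parts was 14.7% among the 65 genes and 47.8% among all abundant genes. The share between times within an organ was 36.7% among the 65 genes and 24.01% among all abundant genes. A gene whose organs differ strongly cannot meet the CV limit, so an organ share below that of all abundant genes follows from the selection.

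Within each organ the 65 genes varied by about the same amount, with a median CV of 0.145 over the 12 root libraries and 0.143 over the 12 aerial libraries. All abundant genes had medians of 0.374 in roots and 0.356 in aerial parts. Some of the 65 were steady in one organ and less so in the other. Glyur000024s00006657 had a CV of 0.224 in roots, where it ranged from 34.1 to 77.5 TPM, and of 0.0519 in aerial parts, where it ranged from 49.96 to 60.2 TPM. Glyur001991s00035737 was the opposite case, with a CV of 0.111 in roots and 0.230 in aerial parts. Of the 65 genes, 51 were at a CV of 0.20 or less in each organ taken alone. A further 64 abundant genes met the limit in each organ but not over both, and their root and aerial means differed by 0.33 to 2.00 on the log2 scale, with a median of 0.60. Of those 64 genes, 50 were higher in roots as deposited, where 61.8% of all abundant genes were. After median-of-ratios scaling 54.3% of all abundant genes were higher in roots, and the 64 were not counted again there.

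**Figure D2:**
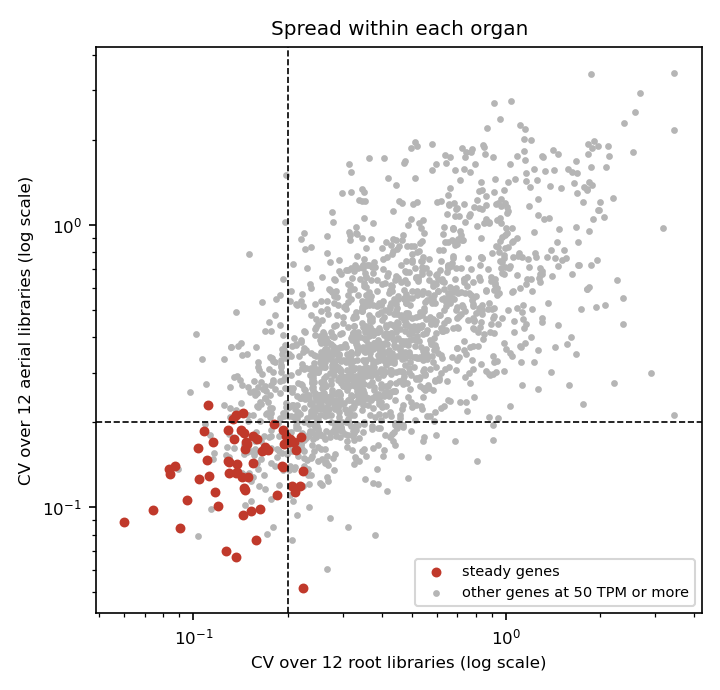
CV over the 12 root libraries (horizontal, log scale) and over the 12 aerial libraries (vertical, log scale) for the 65 chosen genes (red) and the other abundant genes (grey), with the limit of 0.20 dashed on both axes. The lower left field holds 51 of the red points and 64 grey ones, and the red points outside it are within the limit in one organ and past it in the other.

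Between organs, 48 of the 65 genes had a higher mean in roots and 17 a lower one with TPM as deposited, but 21 were higher and 44 lower after median-of-ratios scaling. The median log2 ratio of roots to aerial parts was 0.16 as deposited, 0.24 when each library was scaled to the sum of its listed TPM, and -0.08 after median-of-ratios scaling. Over all 1743 abundant genes it was 0.34, 0.42 and 0.10 under those scalings. The direction for the 65 genes as a whole thus depended on the scaling, with every one of their ratios between -0.36 and 0.47 as deposited.

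The highest ratios of roots to aerial parts were those of Glyur000133s00010400 and Glyur000814s00023374. Glyur000133s00010400 had 73.9 to 100.2 TPM in the 12 root libraries, with a median of 90.5 TPM, and 55.2 to 76.4 TPM in the 12 aerial libraries, with a median of 62.4 TPM. As deposited, only 2 root libraries, both controls (75.3 and 73.9 TPM), were below the highest aerial library, a 12 h one. Its log2 ratio was 0.47 as deposited, a 1.38-fold difference, and 0.22 after median-of-ratios scaling. Glyur000814s00023374 had 141 to 199.95 TPM in roots, with a median of 160.4 TPM, and 96.9 to 139 TPM in aerial parts, with a median of 117 TPM. Its organs did not overlap as deposited but did under both other scalings, with 133 to 172 in roots and 107 to 155 in aerial parts after median-of-ratios scaling, and its log2 ratio was 0.46 as deposited and 0.22 after median-of-ratios scaling.

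The lowest ratios of roots to aerial parts were those of Glyur000191s00015616 and Glyur000057s00009011. Glyur000191s00015616 had 40.9 to 75.2 TPM in roots, with a median of 62.2 TPM, and 57.5 to 92.0 TPM in aerial parts, with a median of 80.8 TPM. Its lowest root value and its lowest aerial value both came from a replicate 2 library at 6 h. Its log2 ratio was -0.36 as deposited and -0.62 after median-of-ratios scaling. Glyur000057s00009011 had 76.7 to 116 TPM in roots and 95.3 to 162 TPM in aerial parts, with a log2 ratio of -0.34 as deposited and -0.58 after median-of-ratios scaling. The organs overlapped in both genes.

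**Figure D3:**
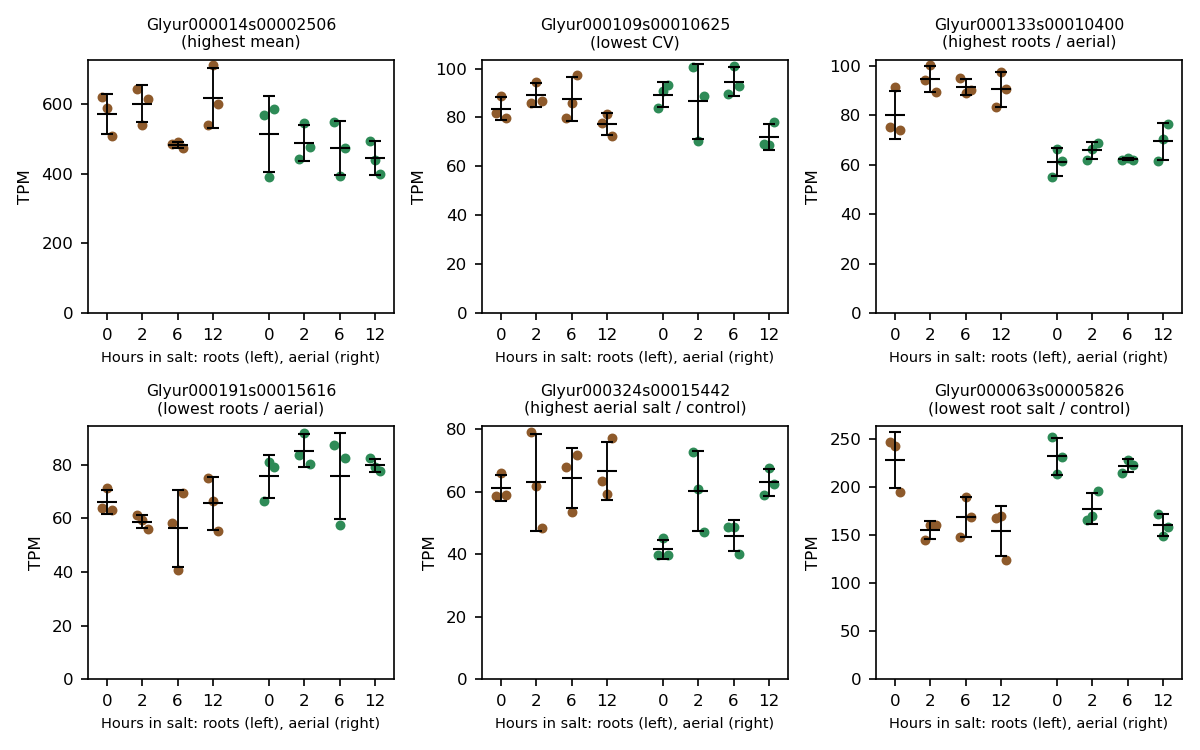
TPM of 6 of the 65 genes in every library: roots (brown, left) and aerial parts (green, right) at 0 h (control), 2, 6 and 12 h in salt, with a dot per library and a bar for the mean and SD of 3 libraries; every vertical axis starts at 0. Glyur000109s00010625 stays between 68.6 and 101 TPM, the roots of Glyur000133s00010400 lie mostly above its aerial parts, and the salt roots of Glyur000063s00005826 lie below its control roots as deposited, where they overlap under other scalings.

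A fit across all genes put these differences beside the rest of the table. It used limma on log2(TPM + 1), with p-values adjusted by Benjamini and Hochberg over all genes that averaged 0.5 TPM or more, and a call at an adjusted p under 0.05. All 65 genes passed that filter on low values. In salt libraries, limma called 25 of the 65 genes between roots and aerial parts, 22 higher and 3 lower in roots, where 48.9% of the 16718 genes tested were called. That fit treated root and aerial salt libraries as independent, although they are paired by number. With the numbers as a replicate block over the 18 salt libraries, 24 of the 65 were called, 21 higher and 3 lower in roots. Over all genes that block fit called 9244 of 16718. In control libraries the fit without the block called 8 of the 65, all higher in roots, where 31.5% of the genes tested were called. That count in controls was 0 when the 6 control libraries were fitted alone (23.8% of genes called, and 6 of the 65 at an unadjusted p under 0.05). It was 4, 3 of them higher and 1 lower in roots, without replicate 2 of the root controls (27.1% of genes called). After median-of-ratios scaling, limma called 18 of the 65 in salt (1 higher and 17 lower in roots), where 46.1% of genes were called, and 6 in controls (1 higher and 5 lower), where 29.7% were called. Of the 25 genes called in salt as deposited, 4 were among those 18. When each library was scaled to its listed sum, 33 were called in salt (32 higher and 1 lower), where 51.7% of genes were called, and 6 in controls (all higher), where 30% were called. The genes are steady over organs in the sense of the CV limit, and the limit leaves room for calls between organs.

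In the main fits, limma called fewer of the 65 genes between salt and control than between organs. The same order held over all genes tested, and salt was fitted on 12 libraries but organs on 24. In aerial parts 0 of the 65 were called between the 9 salt libraries and the 3 controls, where 0.946% of the 15744 genes tested were called, and 8 had an unadjusted limma p under 0.05. In roots 0 of the 65 were called, where 7.63% of the 16138 genes tested were called, and 10 had an unadjusted limma p under 0.05. The lowest adjusted limma p among the 65 was 0.147 in aerial parts and 0.0631 in roots. Without replicate 2 of the 6 h root group, 4 of the 65 were called in roots, all lower in salt, with 17.8% of all genes called. They were Glyur000063s00005826, Glyur000189s00009631, Glyur001163s00025223 and Glyur002136s00034526, and the same 4 were called when all 24 libraries were fitted together, with 13.2% of all genes called. Without replicate 2 of the 6 h aerial group, Glyur001768s00038420 was called in aerial parts, lower in salt, with 4.44% of all genes called.

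The listed TPM of a library covered 39.1% to 51.05% of the full TPM scale, and the sum differed between salt and control. It was 391447 to 427641 in root salt libraries and 473035 to 510545 in root controls. It was 431934 to 464212 in aerial salt libraries and 476312 to 496981 in aerial controls. Salt and control did not overlap in either organ, and the part of these sums in the salt ratios of the 65 genes was seen only through the scalings.

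In roots, 28 of the 65 genes were higher and 37 lower in salt than in control as deposited, but 54 were higher and 11 lower when scaled to the listed sum, and 40 higher and 25 lower after median-of-ratios scaling. The median log2 ratio of salt to control in roots was -0.05 as deposited, 0.21 by listed sum and 0.05 after median-of-ratios scaling. Over all abundant genes those medians were -0.28, -0.02 and -0.17. At 2, 6 and 12 h the medians of the 65 genes as deposited were -0.06, -0.16 and 0.03, and those of all abundant genes were -0.34, -0.28 and -0.33.

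The lowest ratio of salt to control in roots was that of Glyur000063s00005826. Its root values were 246, 242 and 194 TPM in the controls, 144, 159.7 and 161 TPM at 2 h, 147, 189.6 and 169 TPM at 6 h, and 167, 169.7 and 124 TPM at 12 h. As deposited every root salt library was below every root control, and the mean was 159 ± 18.7 TPM in salt (SD, n = 9) and 228 ± 29 TPM in control (SD, n = 3). The log2 ratio was -0.52 as deposited, -0.26 by listed sum and -0.41 after median-of-ratios scaling. In aerial parts the same gene had 166, 169.7 and 195 TPM at 2 h, 214, 228 and 223 TPM at 6 h and 172, 149 and 158.5 TPM at 12 h, against 251, 213 and 231 TPM in the controls. The 12 h libraries lay below every control under all 3 scalings, those at 2 h only as deposited, and those at 6 h overlapped the controls.

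Glyur000189s00009631 had the next lowest ratio in roots, with 41.0 to 67.5 TPM in the 9 salt libraries, a median of 49.6 TPM there, and 75.4, 73.5 and 69.6 TPM in the controls. Its salt and control roots did not overlap as deposited, and its log2 ratio was -0.48 as deposited and -0.22 by listed sum. Glyur002136s00034526, the second most abundant of the 65, had 174 to 239.8 TPM in salt roots, against 308, 288 and 242 TPM in control roots, with no overlap as deposited. Under both other scalings salt and control roots overlapped in each of these 3 genes; by listed sum, Glyur000063s00005826 had 135 to 202 in salt and 172 to 228 in control, Glyur000189s00009631 had 44.0 to 70.3 in salt and 61.7 to 69.2 in control, and Glyur002136s00034526 had 185 to 251 in salt and 215 to 271 in control. The highest ratios in roots as deposited were those of Glyur000024s00006657 (0.43) and Glyur000005s00001123 (0.42). The highest of any of the 65 genes was 0.69 by listed sum and 0.54 after median-of-ratios scaling. Glyur000024s00006657 had 36.3 to 77.5 TPM in salt roots, with a median of 61.7 TPM, against 34.1, 48.8 and 51.0 TPM in control roots, and the lowest salt value was again the 6 h replicate 2 library. Glyur000005s00001123 had 73.9 to 142 TPM in salt roots, with a median of 123 TPM, against 64.5, 86.3 and 124 TPM in control roots. Salt and control overlapped in both of these genes.

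In aerial parts, 18 of the 65 genes were higher and 47 lower in salt than in control as deposited, but 40 were higher and 25 lower by listed sum, and 48 higher and 17 lower after median-of-ratios scaling. The median log2 ratio was -0.08 as deposited, 0.05 by listed sum and 0.12 after median-of-ratios scaling, and over all abundant genes it was -0.14, -0.02 and 0.05. At 2, 6 and 12 h the medians of the 65 genes as deposited were -0.10, -0.12 and -0.06, and those of all abundant genes were -0.26, -0.14 and -0.19.

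Glyur000324s00015442 had the highest ratio of salt to control in aerial parts. Its aerial values were 39.8, 45.1 and 39.9 TPM in the controls, 72.7, 61.0 and 47.3 TPM at 2 h, 48.9, 48.9 and 40.2 TPM at 6 h, and 58.9, 67.6 and 62.5 TPM at 12 h. The libraries at 12 h lay above every control under all 3 scalings, those at 2 h as deposited and by listed sum but not after median-of-ratios scaling, and those at 6 h overlapped the controls. Its log2 ratio of salt to control in aerial parts was 0.44 as deposited and 0.64 after median-of-ratios scaling, and in roots it was 0.08 as deposited. Glyur001117s00026956 came next, with 144 to 247 TPM in aerial salt libraries, against 133, 152 and 141 TPM in aerial controls. Its log2 ratio was 0.33 as deposited, and salt and control overlapped.

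The lowest ratios in aerial parts as deposited were those of Glyur001768s00038420 (-0.42) and Glyur000216s00014152 (-0.36). The lowest of any of the 65 genes was -0.30 by listed sum and -0.23 after median-of-ratios scaling. Glyur001768s00038420 had 39.7, 44.2 and 40.7 TPM at 2 h, 42.6, 60.4 and 43.0 TPM at 6 h and 51.9, 45.5 and 48.9 TPM at 12 h, against 54.0, 64.6 and 66.8 TPM in the aerial controls. As deposited, only replicate 2 at 6 h reached into the range of the controls. In roots the same gene had 47.1 to 66.3 TPM in salt and 47.0 to 66.0 TPM in control, which are nearly the same ranges.

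Taken over both organs as deposited, 30 of the 65 genes were lower in salt in both and 11 higher in both, 17 were higher in roots and lower in aerial parts, and 7 were the other way round. With libraries scaled to the listed sum, 36 were higher in both organs and 7 lower in both, and after median-of-ratios scaling 31 were higher in both and 8 lower in both. The sign of these small ratios therefore rested on the scaling for much of the selection.

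**Figure D4:**
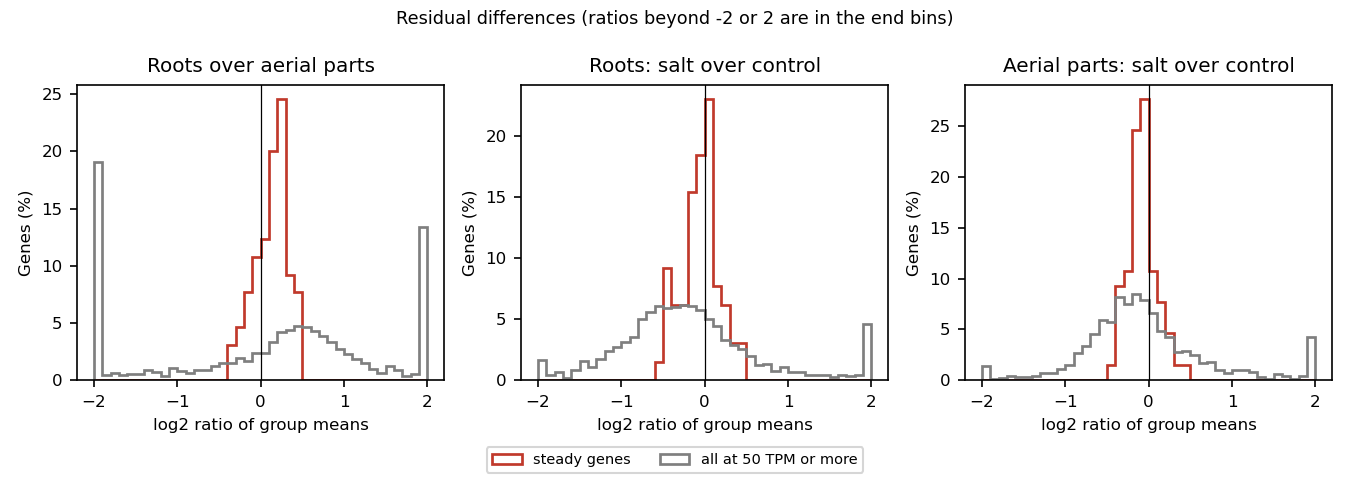
Share of genes (vertical, %) by log2 ratio of group means (horizontal, bins, TPM as deposited) for roots over aerial parts, salt over control in roots, and salt over control in aerial parts, in the 65 chosen genes (red) and all 1743 abundant genes (grey). The red ratios stay between -0.52 and 0.47, and the grey ones reach the end bins; the red medians of 0.16, -0.05 and -0.08 become -0.08, 0.05 and 0.12 after median-of-ratios scaling.

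The highest and lowest group means were spread unevenly over the 8 groups, both for the 65 genes and for all abundant genes. As deposited, the group with a gene's highest mean was the root control for 20 genes, roots at 2 h for 14, roots at 12 h for 14 and an aerial group for 17 in all. The group with the lowest mean was aerial at 6 h for 15 genes, aerial at 2 h for 14 and aerial at 12 h for 13. It was roots at 6 h for 9, roots at 2 h for 3 and roots at 12 h for 1. The root control and the aerial control were lowest for 5 genes each. No gene had its highest mean in roots at 6 h, which held the highest mean of 5.22% of the abundant genes. The median gene stood at 1.09, 1.08, 0.96 and 1.09 times its mean over groups in roots at 0, 2, 6 and 12 h, and at 0.98, 0.94, 0.91 and 0.92 times in aerial parts at those times. The median abundant gene stood at 1.15, 0.98, 0.96 and 0.98 times in roots and at 0.97, 0.81, 0.85 and 0.78 times in aerial parts. Among the abundant genes the highest group was the root control for 34.9%, roots at 2 h for 10.6% and roots at 12 h for 10.5%. It was the aerial control for 10.8%, and aerial at 2, 6 and 12 h for 9.18%, 4.88% and 13.9%. The lowest group was aerial at 12 h for 24.7%, aerial at 2 h for 17.6% and aerial at 6 h for 9.75%. It was roots at 2, 6 and 12 h for 14.7%, 6.43% and 8.78%. The root control was lowest for 8.32% and the aerial control for 9.64%. The tallies and medians in this paragraph were made as deposited only. The single libraries that most often held a gene's lowest value were replicates 2 and 3 of the aerial 6 h group, for 10 and 9 genes. Replicate 1 of the root controls held the highest value of 10 genes.

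Summed over the 65 genes, the level as deposited was 6508 ± 431 TPM in the 12 root libraries and 5978 ± 236 TPM in the 12 aerial libraries (SD). Single libraries ran from 5691 to 7117 TPM. The sum made up 1.23% to 1.70% of the listed TPM of a library. Over all libraries the sum was 6243 ± 435 TPM (SD, n = 24), and the root libraries overlapped the aerial ones. The median-of-ratios factors, by which a library is divided, averaged 1.11 in roots and 0.94 in aerial parts. On average that scaling thus lowers the root values and raises the aerial ones, so the order of the organs as deposited depends on the scaling.

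**Figure D5:**
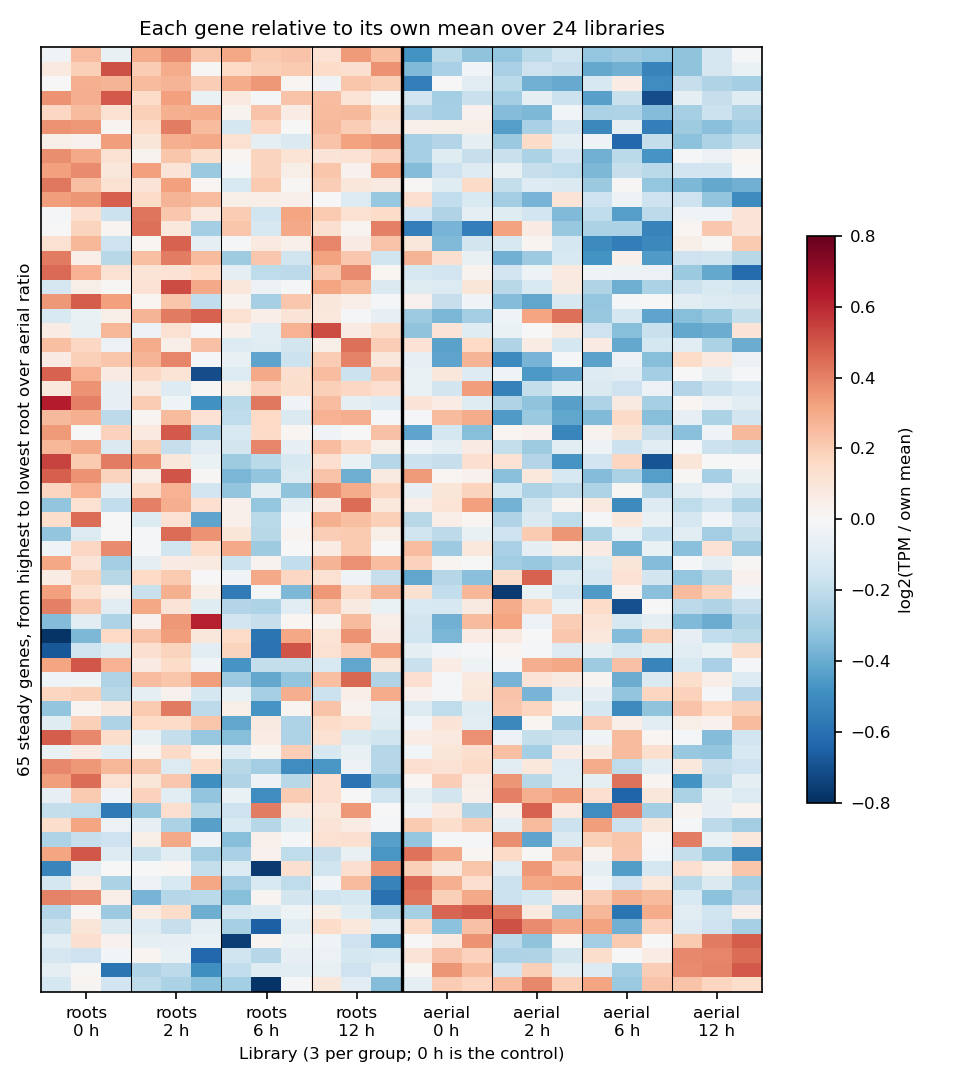
Log2 of TPM as deposited over the gene's own mean of 24 libraries (color) for the 65 genes (lines, from the highest to the lowest ratio of roots to aerial parts) in every library (columns, roots left and aerial parts right, 3 per group). Blue is more common in aerial parts, where 48 of 65 genes were lower than in roots as deposited, but 21 of 65 after median-of-ratios scaling, and single dark cells mark libraries such as replicate 2 at 6 h.

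The 65 genes did not vary as 1 block. Over the 2080 pairs of them, Pearson's r of log2(TPM + 1) across the 24 libraries had a median of 0.15. It ran from -0.72 to 0.89, and 66.7% of pairs were above 0. These values describe genes that share libraries and scaling. The highest r was between Glyur000256s00016243 and Glyur000910s00020568, and the lowest between Glyur000063s00005826 and Glyur000324s00015442, the genes whose salt values are given above.

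A pair of the 65 genes have IDs that differ by only 2 in their last part, Glyur000910s00020568 and Glyur000910s00020570. In roots at 2 h Glyur000910s00020568 had 147, 172 and 139 TPM, against 184, 163 and 149.9 TPM in root controls. In the same libraries Glyur000910s00020570 had 115, 142 and 172 TPM at 2 h, against 87.7, 105 and 94.1 TPM in controls. The 2 h roots lay above all controls in Glyur000910s00020570 and overlapped them in Glyur000910s00020568, under all 3 scalings. The log2 ratio of salt to control in roots was 0.36 for Glyur000910s00020570 and -0.16 for Glyur000910s00020568. Of the 65 genes, 59 were the only ones with their first ID part.

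Several IDs had more than 1 row in the files, and rows were summed before the limits were applied. That held for 13 of the 65 genes (20%), for 11.5% of the abundant genes and for 7.99% of all IDs. In 10 of the 13, a single row held at least 90% of the gene's TPM. In 6 of the 13 a row with a mean of at least 5 TPM had a CV over 0.20. The clearest case was Glyur000878s00027528, whose rows held 61.2% and 38.9% of its TPM and had CVs of 0.329 and 0.347, while their sum had 0.198. In Glyur001163s00025223 the rows had CVs of 0.534 and 0.208 and the sum 0.184. A low CV of the summed gene did not mean a low CV of each row in these cases.

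The limits were also applied to some libraries and the values read in the others. With the 18 salt libraries alone, 107 genes met the limits, and 63 of the 65 were among them. In the 6 control libraries, of both organs, the 107 genes had a median CV of 0.174, and 60.8% of them were at 0.20 or less, against 11.3% of the 1704 genes at 50 TPM or more in salt. The control mean was within 2-fold of the salt mean in all 107, and in 86.3% of the 1704. With the 12 aerial libraries alone, 257 genes met the limits, and 38.5% of them had a CV of 0.20 or less in roots, against 11.9% of the 1604 genes at 50 TPM or more in aerial parts. The root mean was within 2-fold of the aerial mean in 78.6% of the 257, and in 49.9% of the 1604. With the 12 root libraries alone, 233 genes met the limits, and 55.4% of them had such a CV in aerial parts, against 17.3% of 1662 genes. The aerial mean was within 2-fold of the root mean in 86.7% of the 233, and in 59.5% of the 1662. The libraries read were not independent of those used in the choice: the 9 root and 9 aerial salt libraries are paired by number, and the controls are of the same organs as the salt libraries. These shares are a description, with no test.

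Which genes met the limits depended on the scaling more than on any single library. Of the 65 genes, 59 met them without each library in turn. Scaled to the listed sum, 69 genes met the limits, 47 of them among the 65 (72.3% of the 65 and 68.1% of the 69). After median-of-ratios scaling 96 genes met them, 43 of them among the 65 (66.2% of the 65 and 44.8% of the 96). Under all 3 scalings 31 of the 65 remained. The gene with the smallest CV at its least favorable scaling was Glyur000244s00014823, with 0.131 as deposited, 0.151 by listed sum and 0.129 after median-of-ratios scaling. Glyur000338s00015580 had 0.136, 0.162 and 0.0901 in that order, and Glyur001105s00029438 had 0.137, 0.155 and 0.118. In contrast, Glyur000324s00015442 had 0.239 by listed sum and 0.231 after median-of-ratios scaling, above the limit under both.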

How the data were processed

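Total RNA of 24 samples (3 per group) was sequenced. The authors deposited 1 table per library, with TPM per the file headers. Tools listed in the submitters' processing notes are HISAT2, StringTie, RSEM, fastp, edgeR and DESeq2. Their versions and roles, the genome build and the annotation were not given in the sources used here. A table's 38135 rows cover 34445 IDs, and rows were summed for the 2751 IDs that have more than 1. TPM do not show the read depth, so counting intervals were not computed. No pair of libraries held identical values.

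The CV used the SD with n - 1 over 24 libraries (Python 3.11.15, pandas 2.3.3, matplotlib 3.10.9). Log2(TPM + 1) of genes that averaged 0.5 TPM or more was fitted in R 4.3.3 by limma 3.58.1, using its trend option, with two-sided tests. Salt was the mean of the 3 salt times. The fit for salt used the 12 libraries of an organ, and the fit for organs used all 24. The pseudocount of 1 understates changes of low genes. The fit was also run on simulated data with independent noise for each gene and library. Those data lacked the pairing of root and aerial salt libraries and the scaling differences, so they cannot show how these affect the calls. The plan allowed for a count test, which was not used because the files hold TPM. The alternatives tried were other limits, libraries, scalings, pseudocounts and filters.

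The members, lists and limits were chosen with earlier results of these data known. Genes were named by rank: highest mean, lowest CV, nearest to the limits, widest range, and the highest and lowest ratios between organs and between salt and control. Other IDs (extremes of replicate spread or correlation, IDs next to each other, IDs with several rows, IDs steady under 3 scalings) were picked after their values were seen. Lists of reference genes and of organ markers could not be matched, since the IDs carry no names.

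Title numbers are shared by root and aerial salt libraries. Over 16718 genes, the residuals of same-numbered libraries correlated at 0.198 to 0.567, and for 9 of 9 numbers the best partner was the own number, so the numbers were taken to pair the samples. The main fits did not use this pairing, and among the fits only the replicate block did.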

Additional observations from a re-analysis of the deposited data

How the results depend on the processing

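The number of genes meeting the limits, 65, became 12 at a CV of 0.15, 166 at 0.25, 203 at a mean of 20 TPM, 20 at 100 TPM, 257 in aerial libraries alone, 233 in root libraries alone and 107 in salt libraries alone, and it ran from 63 to 79 without single libraries. Of the 65, genes called by limma between roots and aerial parts in control, 8, became 0 with the 6 control libraries alone. They became 5 and 4 without replicates 1 and 2 of the root controls, and 4, 5 and 5 without replicates 1, 2 and 3 of the aerial controls (range over single libraries 4 to 9). Over all genes, the main fit called 5272 there and the 6 control libraries alone 3882. Those 5 fits without a control replicate called 4387 to 4916, within 4387 to 5643 over single libraries. In salt the number called of the 65 ran from 22 to 30, against 25, and was 24 with the replicate block, 22 of them among the 25. Over all genes, calls in salt ran from 7723 to 8371, against 8168, and were 9244 with the replicate block. Of the 65, genes called for salt in aerial parts ran from 0 to 1, with 1 without replicate 2 at 6 h of the aerial parts. For salt in roots they ran from 0 to 4, with 4 without replicate 2 at 6 h of the roots and 4 with 24 libraries in the fit. In a fit of 1 organ, leaving out both 6 h replicate 2 libraries is the same fit as leaving out that organ's own. Over all genes, calls without single libraries ran from 18 to 688 in aerial parts, against 149. In roots they ran from 130 to 2831, against 1232. The replicate block could be fitted only to the salt libraries and to the organ comparison, since control titles share no number between organs. The median log2 ratio of roots to aerial parts was 0.24 by listed sum and -0.08 after median-of-ratios scaling (0.15 to 0.18 without single libraries). That of salt to control was 0.046 and 0.12 in aerial parts (-0.10 to -0.05) and 0.21 and 0.053 in roots (-0.11 to -0.002, with -0.11 without replicate 3 of the root controls). Scaling to the listed sum moved the median limma log2 difference of all genes in root salt to 0.14, against -0.06 as deposited, and median-of-ratios scaling moved that between organs in salt to 0.03, against 0.21. Other pseudocounts (0.1 and 5) and filters (none, and a mean of 1 TPM) gave 0 calls among the 65 for salt in both organs, 8 or 9 between organs in control and 24 to 26 in salt. Over all genes those fits called 38 to 152 for salt in aerial parts and 657 to 1329 in roots. Between organs they called 5127 to 5203 genes in control and 7709 to 8588 in salt. Leaving out both 6 h replicate 2 libraries, the medians under scalings and left-out libraries, and the scalings of single genes were chosen after the data were seen. The causes of these shifts were not tested. TPM carry no depth, so the precision of low values cannot be given, and 3 libraries per group limit all spreads.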
